A study of Homo sapiens with 12 samples.

Results

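YAP and TAZ are transcriptional coactivators that the Hippo pathway holds in check, and a set of 10 of their best known target genes is described here in breast cancer cells grown in synthetic matrices. The genes were chosen by symbol, but with earlier results of these data known. They are CYR61, CTGF, ANKRD1, AXL, F3, CRIM1, AMOTL2, LATS2, PTPN14 and NUAK2, with CYR61 and CTGF under the older names of CCN1 and CCN2. All 10 were found among the 23368 gene symbols of the count table, and all 10 passed the filter on low counts in every comparison. MDA-MB-231 cells are an ER− line of the basal subtype and T47D cells an ER+ line of the luminal A subtype, both established human cancer lines. Each line was grown for 3 days inside hydrogels of polyethylene glycol that cells can degrade, which carried either GFOGER, a peptide that mimics collagen, or IKVAV, a peptide that mimics laminin. No condition without a mimic and no other culture time entered the data used here, so the mimics are compared with each other. All gels were of the lower, softer matrix density of the study. RNA of 3 gels was combined for each replicate, and reads were counted on genes in 11 libraries. MDA-MB-231 cells had 3 GFOGER libraries and 2 IKVAV libraries, and T47D cells had 3 for either mimic. A further MDA-MB-231 library with IKVAV, described by the submitters as an outlier, was not analysed here.

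When the Hippo kinases are inactive, YAP and TAZ enter the nucleus, bind the TEAD transcription factors on DNA and switch on genes for matrix proteins, cell surface receptors and the pathway's own inhibitors. Adhesion to the matrix, cell spreading and tension of the actin cytoskeleton are known to favour this state. CYR61 and CTGF encode secreted matricellular proteins that bind integrins, ANKRD1 encodes an ankyrin repeat protein of the nucleus and the sarcomere, AXL a receptor tyrosine kinase, F3 the tissue factor that starts blood clotting, and CRIM1 a membrane protein that binds growth factors of the BMP family. AMOTL2 encodes an angiomotin that holds YAP in the cytoplasm, LATS2 the kinase that phosphorylates YAP and TAZ, and PTPN14 a phosphatase family protein that binds YAP, so these genes act in feedback. NUAK2 encodes a kinase of the AMPK family.

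The genes lie on 7 chromosomes in the hg19 positions of the count table. Of the genes for secreted and nuclear proteins, CYR61 lies at chr1:86046444-86049648, CTGF at chr6:132269317-132272518 and ANKRD1 at chr10:92671857-92681032. Of the genes for surface proteins, AXL lies at chr19:41725108-41767671, F3 at chr1:94994732-95007413 and CRIM1 at chr2:36583370-36778278. The feedback genes lie at chr3:134074190-134093406 for AMOTL2, chr13:21547176-21635722 for LATS2 and chr1:214522039-214725024 for PTPN14, and NUAK2 lies at chr1:205271191-205290883. None of the 10 overlaps another gene of the table, counted as 0 overlaps for each, so their reads are not shared with a neighbour on either strand.

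Promoter sequences of the genes were searched for short motifs. RefSeq promoter entries (GRCh38.p14) matched 8 of the 10 genes in 10 windows, since AXL and AMOTL2 have more than 1 annotated start. CYR61 and CRIM1 were not among the entries. The 250 bases upstream of each start were searched on both strands for GGAATG, the core of the TEAD motif, and for TGANTCA, the core of the AP-1 motif, a factor that often binds beside TEAD. The windows of CTGF, ANKRD1 and NUAK2 are printed because they hold more than 1 TEAD match, and that of F3 because it holds AP-1 matches and no TEAD match. Capitals mark the matches, and each sequence reads 5′ to 3′ on the minus strand, the strand of the gene, up to the base before the start. The windows are chr6:131951373-131951622 for CTGF, chr10:90921088-90921337 for ANKRD1, chr1:205321746-205321995 for NUAK2 and chr1:94541760-94542009 for F3.
CTGF: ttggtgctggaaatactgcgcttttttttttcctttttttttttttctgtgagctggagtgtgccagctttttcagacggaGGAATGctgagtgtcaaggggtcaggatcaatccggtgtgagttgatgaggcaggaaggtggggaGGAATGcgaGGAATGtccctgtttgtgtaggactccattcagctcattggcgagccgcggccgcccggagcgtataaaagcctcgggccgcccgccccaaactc
ANKRD1: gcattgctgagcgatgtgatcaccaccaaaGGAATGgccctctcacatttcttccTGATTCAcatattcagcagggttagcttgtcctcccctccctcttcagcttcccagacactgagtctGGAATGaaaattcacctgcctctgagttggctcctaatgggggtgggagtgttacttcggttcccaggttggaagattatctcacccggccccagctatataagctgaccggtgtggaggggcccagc
NUAK2: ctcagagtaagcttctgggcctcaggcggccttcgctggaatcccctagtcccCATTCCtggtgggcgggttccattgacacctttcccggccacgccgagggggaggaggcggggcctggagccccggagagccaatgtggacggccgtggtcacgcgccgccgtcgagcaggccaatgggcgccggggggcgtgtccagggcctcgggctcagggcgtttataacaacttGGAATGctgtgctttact
F3: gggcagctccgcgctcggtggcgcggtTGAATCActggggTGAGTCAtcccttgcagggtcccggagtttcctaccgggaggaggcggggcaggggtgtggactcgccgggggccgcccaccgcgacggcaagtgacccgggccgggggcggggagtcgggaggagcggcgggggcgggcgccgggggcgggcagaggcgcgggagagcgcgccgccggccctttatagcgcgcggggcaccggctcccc

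A TEAD match was found in 6 of the 10 windows, 1 window for each of 6 genes, while 11.9% of all 35116 RefSeq windows of 250 bases held at least 1. CTGF had 3 matches, with first letters 169, 104 and 95 bases upstream of the start, and 0.0826% of all windows held 3 or more. ANKRD1 had 2 matches, at 220 and 128 bases, and NUAK2 had 2, at 197 and 18 bases, against 0.940% of all windows with 2 or more. AXL, AMOTL2 and PTPN14 had 1 each, for AXL and AMOTL2 in the second of their windows, and LATS2 and F3 had 0. An AP-1 match was found for 2 genes, F3 at 223 and 210 bases and ANKRD1 at 195 bases, against 6.57% of all windows with at least 1. These are matches of letters and not measured binding.

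**Figure D1:**
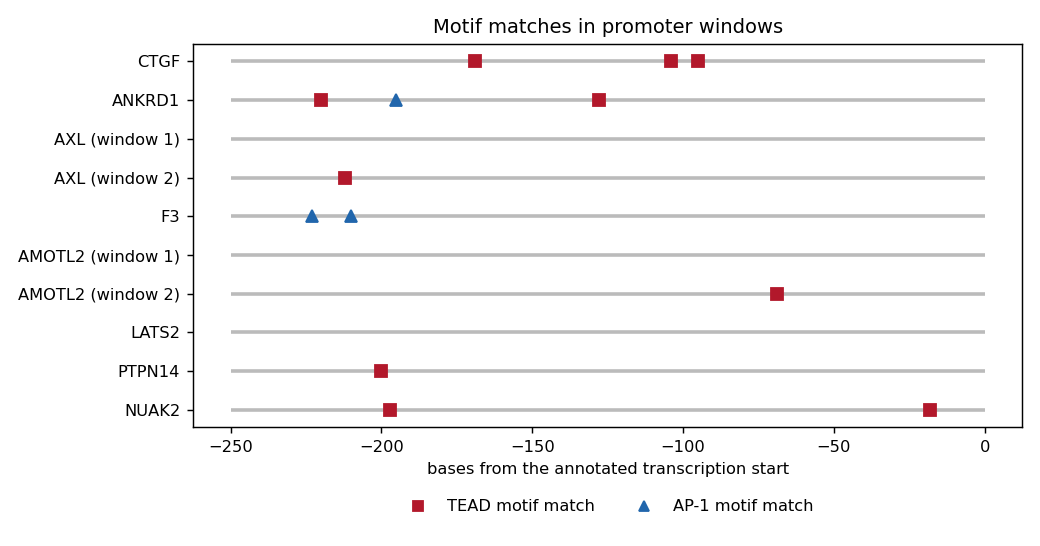
Matches to the TEAD motif (squares) and the AP-1 motif (triangles) in the 250 bases upstream of each annotated start, with the distance from the start in bases on the horizontal axis and 1 line per promoter window. CTGF holds 3 TEAD matches, ANKRD1 and NUAK2 hold 2 each, and F3 holds AP-1 matches and no TEAD match.

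Levels are given as cpm, read counts scaled to a common library size, after TMM normalization, which also corrects for composition. Libraries held 14337035 to 18449108 reads on genes, so that 3 reads, taken as the floor, correspond to 0.168 to 0.201 cpm, a limit that covers counting error only. Nothing states that replicates came from separate cultures, so p-values measure the spread between these libraries of pooled gels. Chi-square statistics per degree of freedom between replicates ran from 2.51 to 18.6, so no library was a copy of another. MDA-MB-231 GFOGER replicate 3 and T47D IKVAV replicate 3 stood apart from their replicates, at 16.4 to 18.6, where the other pairs reached 9.92. The deposited RPKM values imply totals of 5191201 to 5774966 reads in 5 libraries, fewer than the reads counted on genes there, and of 19898878 to 22840524 in the other 6. These 5 are MDA-MB-231 IKVAV replicate 1, the T47D GFOGER replicates and T47D IKVAV replicate 3. The cell lines were checked by markers: 10 luminal markers summed to 7492 to 8715 cpm in T47D and 537 to 635 cpm in MDA-MB-231 libraries, and 8 basal and mesenchymal markers to 7.87 to 11.6 and 3439 to 5325 cpm. All 10 luminal markers, led by FOXA1, PGR and CDH1, were called lower in MDA-MB-231 cells with GFOGER, and all 8 basal markers, led by CAV1, MSN and FOSL1, higher, where 23.2% of all genes were lower and 23.7% higher.

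In MDA-MB-231 cells the YAP/TAZ target genes were higher with the collagen mimic than with the laminin mimic. CYR61, CTGF, ANKRD1, AXL, F3, CRIM1 and AMOTL2 rose by 2.03- to 4.95-fold and were called, LATS2 and PTPN14 rose by less than 2-fold, and NUAK2 did not pass the test. A gene was called at an adjusted p below 0.05 and a change above 2-fold in the quasi-likelihood test of edgeR, adjusted by Benjamini-Hochberg over all 14090 genes tested. Of the 10 genes, 7 were called higher and 0 lower, where 3.12% of all genes were called higher and 6.46% lower. At any fold, 9 of 10 were higher, against 21.4% of all genes. The median log2 fold change was 1.29 over the 10 genes and 0.0039 over all genes.

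The genes for secreted and nuclear products included the largest changes, those of ANKRD1 and CYR61. CYR61 stood at 1926, 1953 and 2088 cpm in the GFOGER libraries and at 601 and 627 cpm in the IKVAV libraries. The groups were far apart relative to their spread, with a log2 fold change of 1.69 (SE 0.0807, edgeR adjusted p = 1.67e-10). CTGF, its close relative, stood at 366, 384 and 360 cpm with GFOGER and at 137 and 146 cpm with IKVAV. Every GFOGER library was again above every IKVAV library, by a log2 fold change of 1.38 (SE 0.0899, edgeR adjusted p = 5.65e-09). ANKRD1, long used as a reporter gene of YAP activity, had 441, 448 and 407 cpm with GFOGER and 90.7 and 82.6 cpm with IKVAV. At 2.31 on the log2 scale, or 4.95-fold, it had the largest change of the 10 (SE 0.0968, edgeR adjusted p = 3.16e-11).

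The genes for surface proteins rose as well. AXL was measured at 1136, 1121 and 1353 cpm with GFOGER, the highest value being that of replicate 3, and at 447 and 449 cpm with IKVAV. Its log2 fold change was 1.42 (SE 0.0948, edgeR adjusted p = 7.65e-09). F3 was measured at 423, 422 and 375 cpm against 147 and 142 cpm, with replicate 3 here the lowest of the GFOGER libraries. The difference of 1.48 on the log2 scale had an SE of 0.0925 (edgeR adjusted p = 3.61e-09). CRIM1 was at 346, 356 and 337 cpm against 172 and 167 cpm, a log2 fold change of 1.02 (SE 0.0869, edgeR adjusted p = 1.31e-07) that sits at the 2-fold threshold. Without MDA-MB-231 IKVAV replicate 2 the fold of CRIM1 fell just short of the threshold and 6 genes were called, while 7 were called with any other library left out, GFOGER replicate 3 included.

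The feedback genes rose by 0.37 to 1.20 on the log2 scale. AMOTL2 was at 197, 192 and 220 cpm with GFOGER and at 90.2 and 85.0 cpm with IKVAV, a log2 fold change of 1.20 (SE 0.100, edgeR adjusted p = 9.55e-08). LATS2 was at 82.1, 84.8 and 89.7 cpm against 52.8 and 58.1 cpm, and its increase of 0.62 on the log2 scale (SE 0.107, edgeR adjusted p = 0.000232) stayed below 2-fold. PTPN14 was at 412, 424 and 413 cpm against 326 and 316 cpm. The GFOGER libraries lay close together and above both IKVAV libraries, but the log2 fold change was only 0.37 (SE 0.0820, edgeR adjusted p = 0.00183), and its adjusted p was 0.0603 without MDA-MB-231 IKVAV replicate 2.

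NUAK2 had the opposite sign. It was rare in these cells, with 51 to 97 reads a library, at 3.67, 3.17 and 4.75 cpm with GFOGER and 5.28 and 5.83 cpm with IKVAV. The GFOGER libraries were all lower, yet the log2 fold change of -0.53 (SE 0.234) did not pass the test (edgeR adjusted p = 0.0783). Leaving out MDA-MB-231 GFOGER replicate 3, the highest of its group, gave -0.71 with an adjusted p of 0.0145, and 1 fit of all 4 conditions gave -0.52 with an adjusted p of 0.0429. Counted over the 10 genes, 9 had GFOGER libraries wholly above and 1 wholly below the IKVAV libraries, and 32.2% and 30.8% of all genes did so.

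**Figure D2:**
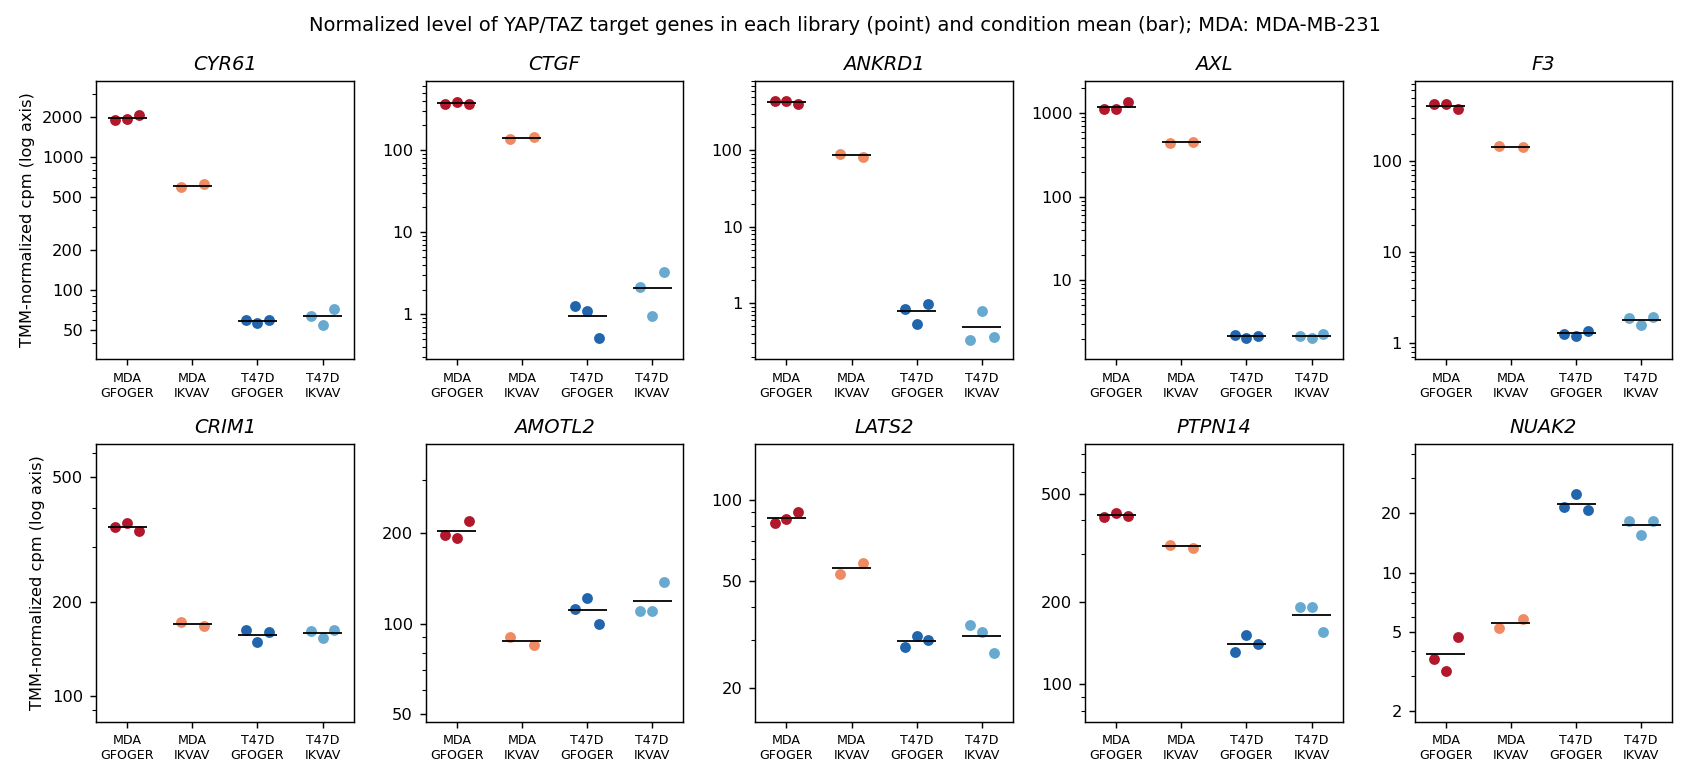
Normalized level in cpm, on a log axis that differs between panels, of each of the 10 genes in the 11 libraries, with points for libraries and a bar for the mean of each condition. In MDA-MB-231 cells the GFOGER libraries lie above the IKVAV libraries for 9 genes and below for NUAK2, while the T47D groups overlap for 7 genes.

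In T47D cells none of the 10 genes was called between the mimics. The test called 0 of 10 at 2-fold and 0 of 10 at any fold, where it called 0.022% of all 13639 genes at 2-fold, 3 genes in number, and 0.044% at any fold. At an unadjusted p below 0.05 there were 3 of the 10, CTGF, PTPN14 and NUAK2, and 11.2% of all genes. DESeq2 also called 0 of the 10, as did the fit without T47D IKVAV replicate 3. The median log2 fold change was -0.097 over the 10 genes and -0.0010 over all genes.

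Precision differed between the genes, since some were well expressed in T47D cells and others had few reads. CYR61 stood at 59.3, 56.5 and 59.4 cpm with GFOGER and at 64.4, 54.5 and 72.5 cpm with IKVAV. The groups overlapped, and the log2 fold change of -0.14 had a 95% interval from -0.36 to 0.073, so that an increase of the size seen in MDA-MB-231 cells lay far outside it. CRIM1 was just as close, at 163, 149 and 160 cpm against 161, 153 and 162 cpm, with a log2 fold change of -0.033 and an interval from -0.19 to 0.13. AMOTL2 was at 112, 122 and 99.7 cpm against 110, 110 and 137 cpm, and LATS2 at 28.4, 31.2 and 30.1 cpm against 34.3, 32.3 and 26.9 cpm. Both groups overlapped, with log2 fold changes of -0.12 (interval -0.33 to 0.098) and -0.077 (interval -0.33 to 0.17).

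PTPN14 and NUAK2 showed groups that did not overlap. PTPN14 was at 131, 151 and 141 cpm with GFOGER and at 192, 193 and 155 cpm with IKVAV, a log2 fold change of -0.37 (SE 0.100, edgeR adjusted p = 0.202). Without T47D IKVAV replicate 3, the lowest of its group, the value was -0.47 with an adjusted p of 0.00064. NUAK2 was at 21.4, 25.0 and 20.8 cpm against 18.3, 15.6 and 18.3 cpm, a log2 fold change of 0.35 (SE 0.122, edgeR adjusted p = 0.327). F3, at 1.27, 1.21 and 1.37 cpm against 1.88, 1.57 and 1.92 cpm, was the third such gene, with a log2 fold change of -0.49 (SE 0.276, edgeR adjusted p = 0.525). Groups that do not overlap were found for 15.9% of all genes in this comparison.

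The remaining genes had few reads. CTGF had 9 to 54 reads a library, at 1.27, 1.09 and 0.515 cpm with GFOGER and 2.15, 0.966 and 3.24 cpm with IKVAV. Its log2 fold change of -1.16 had a wide interval, from -2.10 to -0.23, and an edgeR adjusted p of 0.345. With the 5 libraries of low implied RPKM totals as a term in the fit it was -1.76. CTGF was the 1 gene of the 10 called in that fit. All T47D GFOGER libraries are among the 5, so that fit sets them against T47D IKVAV replicate 3 alone. ANKRD1 had 5 to 17 reads a library, at 0.847, 0.543 and 0.972 cpm against 0.336, 0.785 and 0.361 cpm, with a log2 fold change of 0.64 and an interval from -0.35 to 1.63. AXL was the steadiest, at 2.24, 2.05 and 2.17 cpm against 2.15, 2.05 and 2.28 cpm, with an interval from -0.53 to 0.49 around -0.022.

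**Figure D3:**
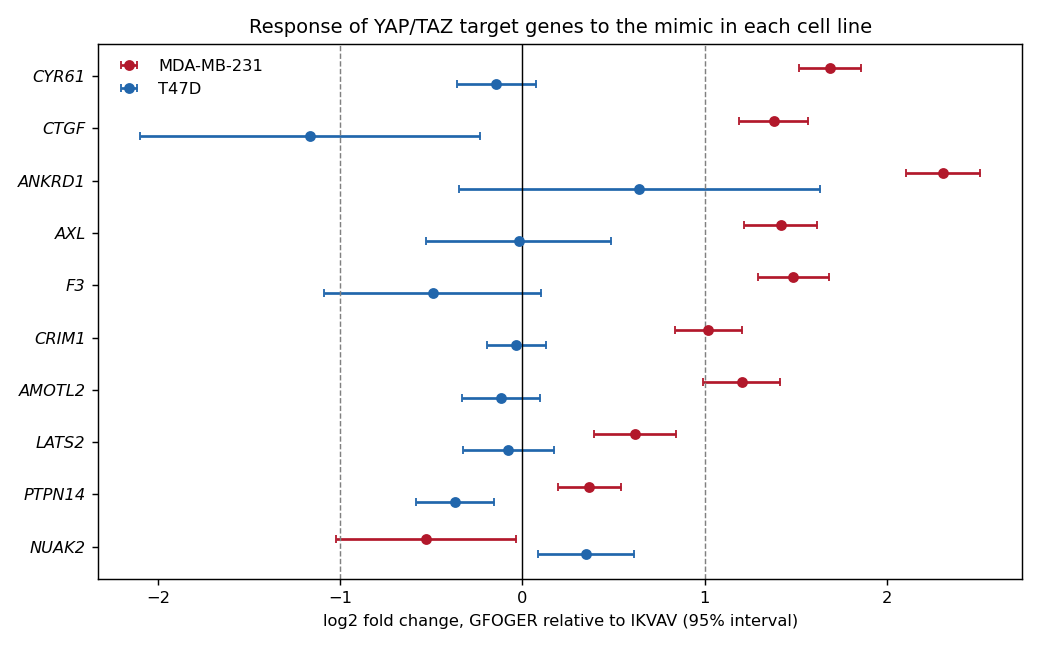
Log2 fold change of each gene with GFOGER relative to IKVAV in MDA-MB-231 cells (red) and T47D cells (blue), with 95% intervals from edgeR's fit. Dashed lines mark 2-fold, and the MDA-MB-231 values of 9 genes lie above 0 while the T47D values lie between -1.16 and 0.64.

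Whether the cell lines responded differently was tested as an interaction in 1 fit of the 4 conditions, in which a positive value means a larger response to GFOGER in MDA-MB-231 cells. The interaction was called for 7 of the 10 genes, all positive, where 2.25% of all 15310 genes were called positive. At any fold it was positive for 9, against 10.9% of all genes, and negative for NUAK2, against 10.2%. CTGF had the largest value at 2.55 on the log2 scale (SE 0.368, edgeR adjusted p = 7.52e-05), followed by F3 at 1.98 (SE 0.213, edgeR adjusted p = 2.57e-06) and CYR61 at 1.84 (SE 0.131, edgeR adjusted p = 1.45e-08). In T47D cells CTGF and F3 had fold changes below 0, which enlarges their difference. ANKRD1, with the largest response in MDA-MB-231 cells, had an interaction of 1.68 (SE 0.390, edgeR adjusted p = 0.00491). This value rests on few reads in T47D cells, and without T47D IKVAV replicate 2 it was 1.16 with an adjusted p of 0.116.

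AXL, AMOTL2 and CRIM1 were called with interactions of 1.45, 1.33 and 1.06 (edgeR adjusted p = 6.96e-05, 4.43e-06 and 1.40e-06). AMOTL2 and CRIM1 are well counted in both lines, with 1402 or more reads in every library. LATS2 and PTPN14 differed between the lines by less than 2-fold, at 0.70 and 0.74 (edgeR adjusted p = 0.0036 and 0.00061). The estimates of NUAK2 were lower with GFOGER in MDA-MB-231 cells and higher in T47D cells, but neither passed the test with each line fitted alone. The NUAK2 interaction was -0.87 (SE 0.243, edgeR adjusted p = 0.0151). Its adjusted p was 0.0786 without MDA-MB-231 IKVAV replicate 2, and with the RPKM term those of NUAK2 and LATS2 were 0.0596 and 0.133.

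The levels themselves set the cell lines apart. With GFOGER, 8 of the 10 genes were called higher in MDA-MB-231 than in T47D cells and 1 lower, where 23.7% and 23.2% of all 15310 genes were. With IKVAV, 5 were called higher and 1 lower, against 23.6% and 22.3% of all genes. In bulk RNA, fewer cells that express a gene and less RNA of it per cell cannot be told apart. The comparisons share libraries with those above, so their values are given side by side.

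AXL, ANKRD1, CTGF and F3 were strongly expressed in MDA-MB-231 cells and had few reads in T47D cells. AXL was 565-fold higher in MDA-MB-231 cells with GFOGER and 207-fold with IKVAV, ANKRD1 548-fold and 172-fold, CTGF 392-fold and 66.7-fold, and F3 319-fold and 80.6-fold. These large ratios rest on 5 to 54 reads in each T47D library, and the SE of their log2 values ran from 0.120 to 0.217. CYR61 was 34.5-fold and 9.64-fold higher, and unlike these genes it was well counted in T47D cells, with 903 to 1207 reads a library. All 5 were called with both mimics by edgeR, with adjusted p-values from 2.08e-21 to 3.83e-16.

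The other genes differed less and not always in 1 direction. LATS2 and PTPN14 were 2.90-fold and 2.99-fold higher in MDA-MB-231 cells with GFOGER (edgeR adjusted p = 3.90e-11 and 2.19e-12), and 1.79-fold each with IKVAV. CRIM1 was 2.24-fold higher with GFOGER (edgeR adjusted p = 8.44e-12), but with IKVAV its log2 difference was 0.10, with a 95% interval from -0.068 to 0.27 and an edgeR adjusted p of 0.262. AMOTL2 changed sign with the mimic: it was 1.86-fold higher in MDA-MB-231 cells with GFOGER (edgeR adjusted p = 6.20e-08) and 1.35-fold lower with IKVAV (edgeR adjusted p = 0.00144). NUAK2 was lower in MDA-MB-231 cells throughout, by 5.69-fold with GFOGER (edgeR adjusted p = 1.57e-11) and 3.12-fold with IKVAV (edgeR adjusted p = 7.88e-08).

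To compare genes with each other, counts were scaled to gene length as cpm per kilobase (RPKM). In MDA-MB-231 cells CYR61 led, at 868 ± 37.8 RPKM (SD, n = 3) with GFOGER and 268 ± 8.04 RPKM (SD, n = 2) with IKVAV. With GFOGER it was followed by AXL at 254 ± 27.5, ANKRD1 at 219 ± 11.1, F3 at 170 ± 11.4 and CTGF at 158 ± 5.45 RPKM. Neighbours in this order did not overlap between libraries, except F3 and CTGF. With IKVAV, AXL at 94.5 RPKM was followed by CTGF at 60.4 and F3 at 60.3 RPKM, which overlapped, and ANKRD1 at 43.9 RPKM came only after these. CRIM1, AMOTL2, PTPN14 and LATS2 ranged from 15.4 to 61.7 RPKM with GFOGER and from 10.0 to 30.2 RPKM with IKVAV, and NUAK2 was last, at 1.14 and 1.63 RPKM.

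T47D cells had another order. CRIM1 led at 28.0 ± 1.31 RPKM (SD, n = 3) with GFOGER and 28.3 ± 0.946 RPKM (SD, n = 3) with IKVAV, ahead of CYR61 at 25.5 ± 0.717 and 27.8 ± 3.93 RPKM. Their libraries overlapped with IKVAV and not with GFOGER. AMOTL2 at 22.3 and 23.9 RPKM and PTPN14 at 10.5 and 13.4 RPKM came next. NUAK2, last in MDA-MB-231 cells, stood at 6.59 RPKM with GFOGER and 5.11 RPKM with IKVAV, beside LATS2 at 5.40 and 5.62 RPKM. F3, AXL, CTGF and ANKRD1 were all below 1 RPKM, between 0.250 and 0.905, and with GFOGER the last 3 overlapped.

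**Figure D4:**
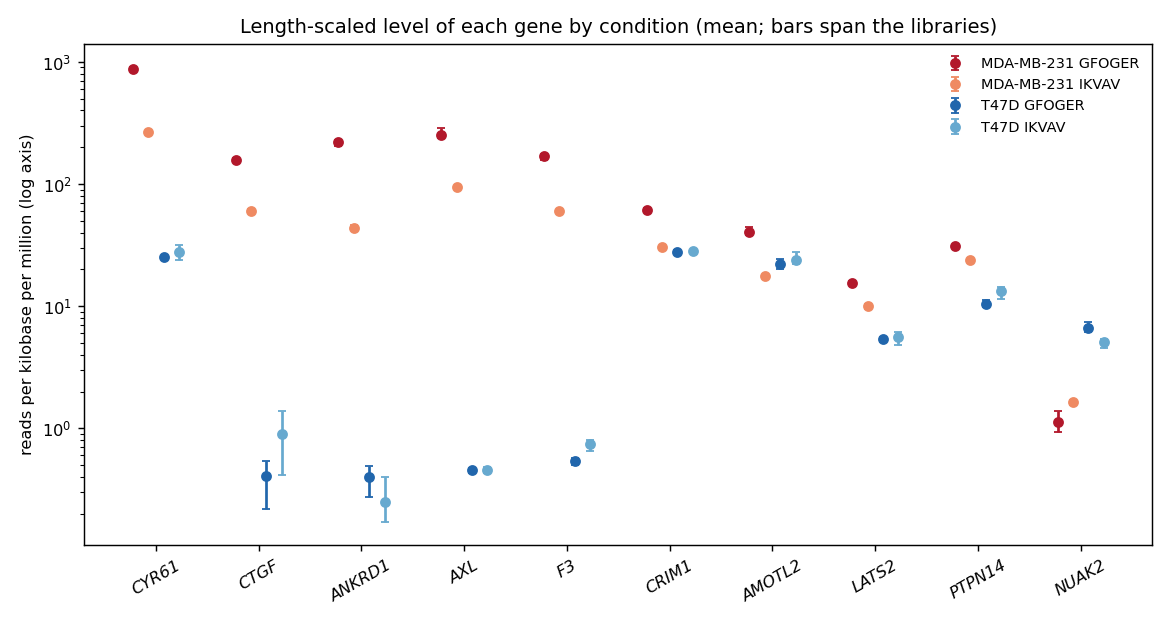
Level of each gene in RPKM (reads per kilobase of gene length, scaled to library size), on a log axis, in the 4 conditions, with points for the mean and bars from the lowest to the highest library. CTGF, ANKRD1, AXL and F3 lie below 1 in T47D cells and between 43.9 and 254 in MDA-MB-231 cells, while CRIM1, AMOTL2, LATS2 and PTPN14 differ far less between the lines.

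The coactivators, TEAD1 and TEAD3 did not pass the test between the mimics in MDA-MB-231 cells, while TEAD2 and TEAD4 did. The GFOGER libraries had a mean of 334 ± 29.0 cpm (SD, n = 3) of YAP1 and the IKVAV libraries of 356 ± 10.1 cpm (SD, n = 2), a log2 fold change of -0.10 (95% interval -0.29 to 0.089, edgeR adjusted p = 0.389). WWTR1, the gene of TAZ, had -0.16 (SE 0.0905, edgeR adjusted p = 0.159), TEAD1 -0.062 (SE 0.0846, edgeR adjusted p = 0.583) and TEAD3 -0.038 (SE 0.117, edgeR adjusted p = 0.818). TEAD2 fell with GFOGER, by 1.52 on the log2 scale (SE 0.125, edgeR adjusted p = 8.51e-08), from 65.1 to 22.8 cpm, and its interaction of -1.44 was called (edgeR adjusted p = 3.31e-06). TEAD4 was higher by 0.94 (SE 0.169, edgeR adjusted p = 0.000302) at 17.9 against 9.24 cpm. VGLL3, a TEAD cofactor, rose by 1.35 (SE 0.179, edgeR adjusted p = 1.84e-05). VGLL4, another cofactor, fell by 0.69 (SE 0.105, edgeR adjusted p = 6.37e-05), which is less than 2-fold. Of the 10 TEAD factors and cofactors listed, 8 were tested, 1 was called higher and 1 lower, where 3.12% and 6.46% of all genes were, with a median of -0.082. At any fold 2 were higher and 2 lower, against 21.4% of all genes in either direction. In T47D cells 0 of 8 were called, and 2 of 8 had an unadjusted p below 0.05, against 11.2% of all genes.

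Between the lines with GFOGER, WWTR1 and TEAD1 were higher in MDA-MB-231 cells, by 1.38 (SE 0.0871, edgeR adjusted p = 1.16e-11) and 2.09 (SE 0.0885, edgeR adjusted p = 1.53e-14) on the log2 scale. TEAD2 and TEAD4 were lower, at -1.25 and -1.27 (edgeR adjusted p = 1.75e-09 and 3.04e-08). YAP1 differed by only 0.19 (SE 0.0756, edgeR adjusted p = 0.0296) and TEAD3 by 0.12 (SE 0.105, edgeR adjusted p = 0.298), and the libraries of the lines overlapped for both. With IKVAV the differences of WWTR1 and TEAD1 were 1.27 and 1.92.

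Other genes of the pathway were listed from general knowledge. Of 23 Hippo kinases and upstream regulators, 22 were tested in MDA-MB-231 cells, and 1 was called higher and 0 lower, near the 3.12% and 6.46% of all genes, with a median log2 fold change of 0.11. The 1 called was FRMD6, a FERM protein of the cell cortex, at 1.20 (SE 0.0951, edgeR adjusted p = 5.36e-08). Of 12 further target genes, all were tested, 1 was called higher and 1 lower, against the same shares. At any fold 7 were higher, against 21.4% of all genes, and 3 lower, against 21.4%, with a median of 0.25. NT5E, an ectonucleotidase, rose by 1.13 (SE 0.0936, edgeR adjusted p = 8.97e-08), whereas IGFBP3, which binds insulin-like growth factors, fell by 1.13 (SE 0.103, edgeR adjusted p = 2.76e-07). Of 14 relatives and partners of the targets, 10 were tested and 1 was called lower, against 6.46% of all genes. This was WISP2, a relative of CYR61 and CTGF, which fell by 2.74 on the log2 scale (edgeR adjusted p = 0.000457) on 3 to 25 reads a library. Of the 10 relatives and partners tested, 5 were higher and 2 lower at any fold, against 21.4% of all genes in either direction. In T47D cells 0 genes of these lists were called, and 3 of 22, 2 of 10 and 3 of 7 had an unadjusted p below 0.05, against 11.2% of all genes.

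With GFOGER the same lists were compared between the lines. Of the 23 regulators 9 were called higher in MDA-MB-231 cells and 2 lower. Of the 12 further targets 9 were called higher and 1 lower, and of 12 relatives and partners tested 5 and 3. Over all genes 23.7% were called higher and 23.2% lower. FAT4, AMOT and AMOTL1 had the largest called differences among the regulators: FAT4, a cadherin upstream of the pathway, was higher in MDA-MB-231 cells at 151 against 0.495 cpm, and AMOTL1, an angiomotin like AMOTL2, at 211 against 8.70 cpm. AMOT, the angiomotin that gave the family its name, was lower, with 1 to 3 reads in each MDA-MB-231 GFOGER library and 110 to 133 in each T47D GFOGER library. Of the further targets, NT5E stood at 812 against 0.771 cpm and RBMS3 at 23.3 against 0.0795 cpm. FOXF2 had 178 to 223 reads in each MDA-MB-231 GFOGER library and 0 in each T47D GFOGER library. Among the partners of F3, the clotting inhibitors TFPI2 and TFPI were at 325 and 102 cpm in MDA-MB-231 cells and at 0.535 and 0.296 cpm in T47D cells. F7, the ligand of tissue factor, went the other way, with 207 to 269 reads in each T47D GFOGER library and 0 to 1 in each MDA-MB-231 GFOGER library.

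**Figure D5:**
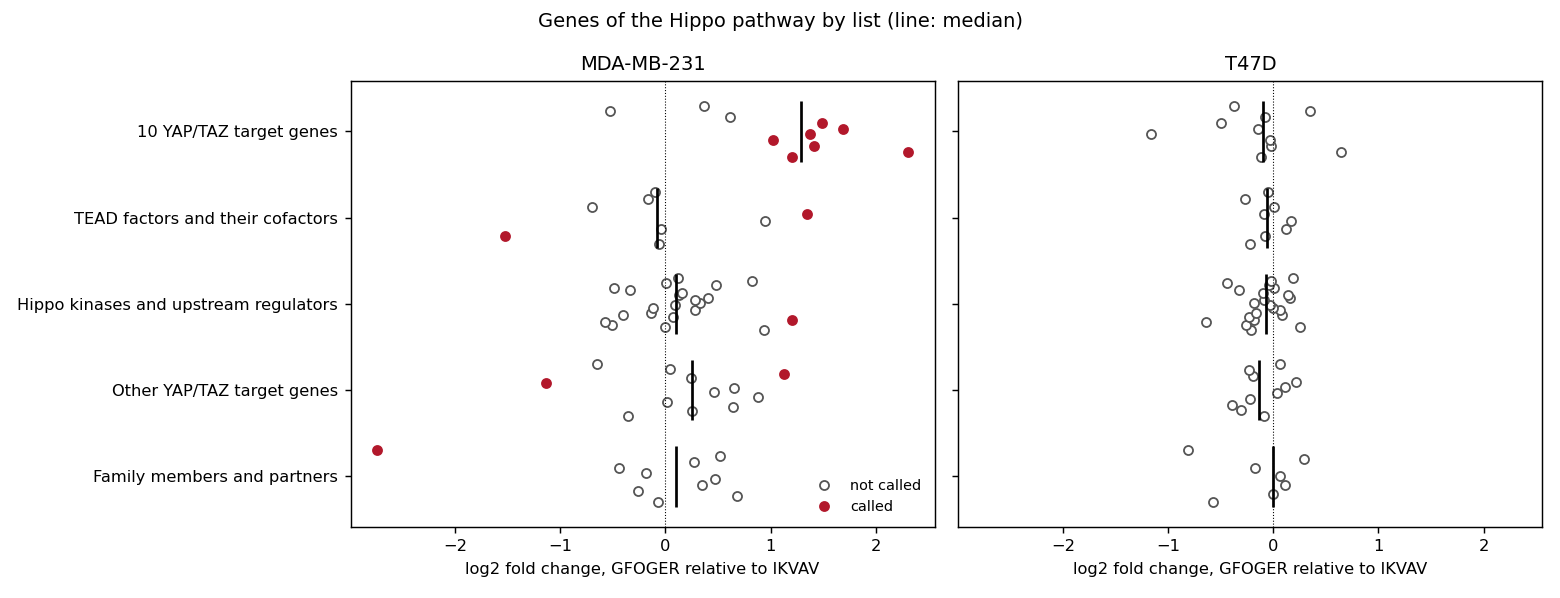
Log2 fold change with GFOGER relative to IKVAV of the genes tested in each list, in MDA-MB-231 cells (left) and T47D cells (right), with filled points for called genes and a line for the median of each list. In MDA-MB-231 cells the median of the 10 targets lies at 1.29 and those of the other lists between -0.082 and 0.25.

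Marker lists were examined beside the response in MDA-MB-231 cells. The 8 basal and mesenchymal markers summed to 4986 to 5325 cpm with GFOGER and 3439 to 3503 cpm with IKVAV, with 1 of 8 called higher, against 3.12% of all genes. It was FOSL1, a subunit of AP-1, at 1.02 (SE 0.112, edgeR adjusted p = 2.27e-06). VIM, at 2322 against 1451 cpm, made up the largest part of the sum. At any fold 5 of the 8 were higher and 2 lower, against 21.4% of all genes in either direction. The lower ones were ZEB1 and TGFBI, each at -0.40 (edgeR adjusted p = 0.00247 and 0.00205). The 10 luminal markers summed to 537 to 635 and 590 to 608 cpm, with 0 called. The 7 markers of leukocytes, endothelium, red cells and liver summed to 16.4 to 19.0 cpm with GFOGER and 24.5 to 25.6 cpm with IKVAV, and of these CD3E, CDH5, ALB and PTPRC had 0 to 10 reads in each library and HBB had 0 in all. CD14 and PECAM1 made up nearly all of the sum and were called higher than in T47D cells, where PECAM1 had 0 reads in every library. The part of these markers in the response was not tested.

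The genes whose pattern over the 11 libraries was most like that of CYR61 and CTGF were sought among 11144 genes with an average of at least 2 log2 cpm. For CYR61 they were ITGA6, DKK1, NCEH1, DOCK9 and ARHGDIB, with Pearson's r from 0.997 to 0.998. For CTGF they were CAPN2, CDC42EP3, FLNA, SLAIN2 and GPRC5A, with r from 0.994 to 0.996. The libraries fall into 2 cell lines of different levels, and the libraries of a condition share its culture, so r is a description. In MDA-MB-231 cells ITGA6, an integrin subunit that binds laminin, was 2.27-fold higher with GFOGER, at 942 ± 75.0 cpm (SD, n = 3) against 411 ± 9.26 cpm (SD, n = 2), and DKK1, a secreted WNT inhibitor, was 4.94-fold higher, at 157 ± 17.2 against 31.5 ± 1.44 cpm, and both were called (edgeR adjusted p = 2.44e-08 and 4.58e-10). FLNA, which crosslinks actin filaments, was 1.47-fold higher, at 4013 ± 519 against 2706 ± 94.8 cpm. SLAIN2 had a log2 fold change of 0.17 (edgeR adjusted p = 0.154), with groups that did not overlap.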

How the data were processed

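RNA of 12 samples in 4 conditions was sequenced, and 11 had values. The authors trimmed reads with Trim Galore 0.4.4, aligned them to hg19 with TopHat2 2.1.0 and counted them on genes with HTSeq 0.6.1p1, per the labels. The deposited table holds a read count and an RPKM value for each gene and library. Counts were used for all results, and RPKM only for the totals it implies. The strand option of the counting is not given in the sources used here. The 1288 entries that repeat a symbol were left out, 6 of them with counts, which left 23368 of 24656.

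The members and lists were chosen with earlier results of these data known. Each line was fitted alone for the mimics, and the 4 conditions together for the lines and the interaction, with R 4.3.3, edgeR 4.0.16 (TMM, filterByExpr, quasi-likelihood test) and Benjamini-Hochberg adjustment. Genes were called at an adjusted p below 0.05 and over 2-fold. Tests were checked on simulated counts. Named were the 10 members, YAP1, WWTR1 and TEAD1 to TEAD4, and of each other list up to 3 called genes with the largest change in the mimic comparisons and between the lines with GFOGER. Outside this rule, VGLL4, VIM, ZEB1, TGFBI, the uncalled markers of other cells and the genes found by likeness were also named. The likeness measure used log2 cpm with a prior count of 2. Alternatives were DESeq2 1.42.0, median-ratio size factors, no filter, the replicate number as a block, the RPKM total set as a term, 1 fit for all conditions, each library left out in turn and, chosen after seeing the data, edgeR's robust spread. The labels do not say that replicate numbers pair the libraries, and no pairing was used in the main fits. Deviations of same-numbered libraries from their condition means had correlations of -0.499 to 0.109 over 15 pairs. With so few libraries a condition, these cannot show whether same-numbered libraries were handled together.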

Additional observations from a re-analysis of the deposited data

Results flagged for a closer look

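All 10 YAP/TAZ target genes were singled out because the response to GFOGER against IKVAV differed between the cell lines in the test of the interaction itself, at an edgeR adjusted p below 0.05. The differences, MDA-MB-231 minus T47D on the log2 scale, were 1.84 for CYR61, 2.55 for CTGF, 1.68 for ANKRD1, 1.45 for AXL, 1.98 for F3, 1.06 for CRIM1, 1.33 for AMOTL2, 0.70 for LATS2, 0.74 for PTPN14 and -0.87 for NUAK2. The values of CTGF, ANKRD1, AXL and F3 rest on 5 to 54 reads in each T47D library. No condition had 4 or more libraries, so single libraries were not tested as outliers.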

How the results depend on the processing

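In MDA-MB-231 cells 7 of the 10 genes were called with DESeq2, median-ratio size factors, no filter, the replicate block, the RPKM total set as a term, 1 fit for all conditions and the robust spread, and 6 to 7 with each library left out. In T47D cells 0 were called under these settings, except 1, CTGF, with the RPKM total set as a term. The genes called there, 3 of all, came to 6 with DESeq2, 20 with no filter, 5 with the replicate block, 49 with the RPKM total set as a term, 5 with 1 fit for all conditions and 0 to 94 with each library left out, 94 of them without T47D IKVAV replicate 3. The cause was not tested. The RPKM total set holds every T47D GFOGER library and no MDA-MB-231 GFOGER library. With it as a term, the mimic comparison of each line therefore rests on 1 IKVAV library. That is replicate 2 in MDA-MB-231 cells and replicate 3 in T47D cells, so the term cannot separate the set from the mimic. In the fit of the 4 conditions its effect is estimated from IKVAV libraries only. Small T47D fold changes changed sign: with each library left out AXL ran from -0.054 to 0.012 (0.011 without IKVAV replicate 3), CRIM1 from -0.058 to 0.0049 and LATS2 from -0.18 to 0.0036, and LATS2 was at 0.16 with the RPKM total set as a term. The interaction was called for 6 to 8 of the 10 with each library left out: ANKRD1 was lost without T47D IKVAV replicate 2, and NUAK2 was called at -1.06 without MDA-MB-231 GFOGER replicate 3. Between the lines with GFOGER, AMOTL2 was also called, at 1.10, with the RPKM total set as a term.

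The labels do not say whether libraries of the same replicate number were handled together, and the main fits use no pairing. With the replicate block, NUAK2 in MDA-MB-231 cells had a log2 fold change of -0.71 and an adjusted p of 0.0150, and 1445 genes were called in MDA-MB-231 cells in place of 1349. Replicate 3 of MDA-MB-231 cells was a GFOGER library only, so the block absorbs it. The block is therefore not a check separate from leaving out GFOGER replicate 3, which also gave -0.71 for NUAK2. Where a condition was left with 1 library, that library was assumed to vary like the others. Depth limits CTGF, ANKRD1, AXL and F3 in T47D cells, at 5 to 54 reads a library, and NUAK2 in MDA-MB-231 cells.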
